A study of Mus musculus with 43 samples.

Results

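The 408 sites described here are CCCGGG positions that had a lower methylation level in polypoid dysplasia than in non-dysplastic epithelium of folate-free mice and no such loss in polyps of folate-supplemented mice. They were selected on measured values of the second cohort. A site on chr1 to chr19 was considered when at least 20 reads covered it in at least 4 libraries of each of 4 groups, which left 14815 of 173449 listed sites. Of these, 1415 had a group mean at least 10 percentage points lower in polyps than in epithelium on the 0 mg diet, and 408 of the 1415 had a polyp mean on the 8 mg diet that was less than 3 points below its epithelium or above it. A further 614 of the 1415 were also at least 10 points lower in 8 mg polyps, and 393 lay between the bounds. The mirror set, lower by at least 10 points only in 8 mg polyps, held 129 sites.

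The mice were female Swiss Webster, an outbred stock, fed diets with 0, 2 or 8 mg of folic acid (FA) per kg for 16 weeks. All the mice used here, those on 0 mg included, received the colon carcinogen azoxymethane (AOM) at 7 weeks of age and 4 cycles of 2% dextran sulfate sodium (DSS), an agent that inflames the colon, from 9 weeks, and were 27 weeks old at the end, so no untreated colon is among the groups. Cohort 1 held laser-microdissected (LMD) non-dysplastic epithelium from fixed colon: 5 mice on 0 mg (0ND), 7 on 2 mg (2ND) and 6 on 8 mg (8ND), 1 library each. Cohort 2 held non-dysplastic epithelium and a polyp of the same mice: 6 mice on 0 mg (0ND and 0P) and 6 on 8 mg (8ND and 8P), with a second polyp of mouse 1856 that makes 7 libraries in 8P. Of the cohort 2 mice, 3 on 0 mg and 5 on 8 mg also had a cohort 1 epithelium library, so the cohorts are not independent.

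Methyl groups on the cytosine of CpG pairs are copied at each cell division by a maintenance methyltransferase, and the methyl donor, S-adenosylmethionine, is replenished through folate-dependent one-carbon metabolism. Colon tumors of mice and people commonly lose methylation over much of the genome, mainly where normal cells are highly methylated, while CpG islands of active promoters stay unmethylated in most normal cells. In DREAM, the assay used here, SmaI cuts only unmethylated CCCGGG and XmaI then cuts the methylated remainder, so the methylation level of a site is the share of its reads with the methylated end. The sample titles call the non-dysplastic samples of both cohorts non-neoplastic cells, and they are called epithelium here. The published study also used epithelium collected with the lamina propria, and whether the collected tissue was the same in both cohorts was not tested. A level is an average over the collected cells. A change of methylation within cells and a change in the mix of cells cannot be told apart, and no marker of cell type was read from these methylation files. The positions are on mm9. Genes and surrounding sequence are not given here because no mm9 genome was used here, so the recognition sequence CCCGGG is all that is printed.

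Library size and quality differed between the cohorts. A library held between 1488920 and 16923453 reads on CCCGGG sites, and the median read number at the 408 sites ranged from 33 in the 8ND library of mouse LC1844 of cohort 1 to 448 in an 8P library. All 6 0P libraries had over 30% of their reads on the spiked methylation standards, as did 3 of 6 0ND, 3 of 6 8ND and 1 of 7 8P libraries of cohort 2 and 2 of 6 8ND libraries of cohort 1. The part of these differences in the results below was not tested.

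In cohort 2, whose values chose the sites and which is therefore a description only, the 8 mg epithelium stood low at these sites. The median over the 408 sites of the group means was 62.7% in 0ND, 42.4% in 0P, 44.5% in 8ND and 50.3% in 8P. The polyp difference on the folate-free diet had a median of -15.6 points and reached -49.1. On the 8 mg diet the polyp difference had a median of 1.84 points, and 8P was above 8ND at 275 of the 408 sites, by 10 points or more at 54. The 8 mg epithelium was below the 0 mg epithelium at 388 of 408 sites, with a median 8ND minus 0ND of -11.8 points. The 8 mg polyps lay above the 0 mg polyps by a median of 7.31 points.

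The rule favors sites where 8ND is low, since a low 8ND makes a loss in 8P less likely to be counted. The sets lower in 8 mg polyps were cut on 8P minus 8ND in the opposite direction, which favors a high 8ND. They therefore do not measure how far this reaches at the selected sites. At the 614 sites lower in polyps on both diets, the median 8ND minus 0ND of cohort 2 was -2.47 points, and at the 129 sites lower only in 8 mg polyps it was 6.88 points. Most covered sites were unmethylated, with a median 0ND level of 0.0667%, so 3802 covered sites with a 0ND mean of at least 10% in cohort 2 are used for comparison. Their median 8ND minus 0ND was -2.50 points in cohort 2, their median 0P minus 0ND -6.28 and their median 8P minus 8ND -3.33.

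Mean levels per library, over those 176 of the 408 sites that reached 20 reads in each of the 25 cohort 2 libraries, showed which mice carried these differences. The 0ND libraries ranged from 52.3 to 59.8% with a median of 56.3% (56.4% ± 2.93, SD, n = 6). The 0P libraries ranged from 22.3 to 50.0% with a median of 42.6% (39.8% ± 9.67, n = 6). All 6 0P libraries lay below all 6 0ND libraries, as they did at covered sites with at least 10% (highest 0P 58.0%, lowest 0ND 59.8%), and the polyp of mouse 1805 was the lowest, at 22.3% with 77.4% of its reads on standards. The 8ND libraries ranged from 36.7 to 51.6% with a median of 44.9% (45.5% ± 5.34, n = 6), all below the lowest 0ND library, while at covered sites with at least 10% the 8ND libraries reached 62.3% and overlapped 0ND. The 8P libraries ranged from 41.5 to 51.7% with a median of 48.2% (48.1% ± 3.35, n = 7) and overlapped the 8ND libraries. The lowest 8ND library was that of mouse 1830.

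**Figure D1:**
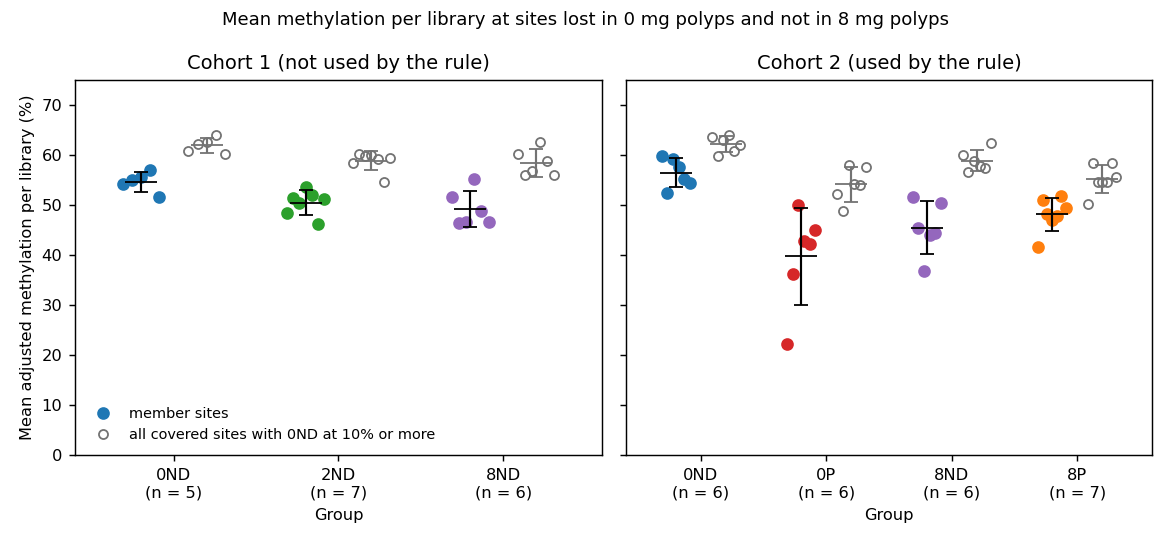
Mean adjusted methylation per library (y axis, percent) by group (x axis) in cohort 1 (left, 271 members) and cohort 2 (right, 176 members). Filled points are libraries at the selected sites and open points the same libraries at all covered sites with a 0ND level of 10% or more. Bars show the mean ± SD. In cohort 2 every 0P library is below every 0ND library at both sets of sites and every 8ND library only at the selected ones, and in cohort 1 the 3 diets overlap.

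Single sites varied widely between libraries. All 0P values lay below all 0ND values at 25 of the 408 sites (6.13%), beside 1.08% of all 14815 covered sites, and since the rule used this contrast nothing is read from the count. Over the 377 sites that could also be compared in cohort 1, the median SD between libraries was 16.7 points in 0P and 14.6 in 8ND, against 11.1 in 0ND and 8.85 in 8P. The median read number per site ranged from 72 to 222 in 0P, 39 to 204 in 8ND, 55 to 113 in 0ND and 118 to 448 in 8P, and its part in these SDs was not tested.

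The choice of sites itself moves these values, which was measured by leaving each mouse out of the choice in turn and reading the sites chosen from the other mice in that mouse alone. On the folate-free diet the mean polyp minus epithelium was -18.3 ± 9.39 points (SD, n = 6 mice) at the 408 sites and -8.26 ± 3.69 when the mouse had not been used, and it was below 0 in 6 of 6 mice both ways. At all covered sites with at least 10% in 0ND the same mice gave -7.51 ± 2.82. On the 8 mg diet the mean was 3.67 ± 6.70 points (n = 6 mice) at the 408 sites and -3.89 ± 3.21 in mice left out of the choice, below 0 in 5 of 6, beside -3.65 ± 2.33 at all covered sites with at least 10%. In mice that had no part in the choice, the mean over mice was thus below 0 on both diets and close to that of covered methylated sites in general.

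Mouse 1805 on 0 mg and mouse 1830 on 8 mg differed most between the readings. Mouse 1805 had a mean polyp minus epithelium of -36.5 points at the selected sites and of -14.1 at sites chosen without it. In mouse 1830 the same means were 15.9 and 0.924 points.

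**Figure D2:**
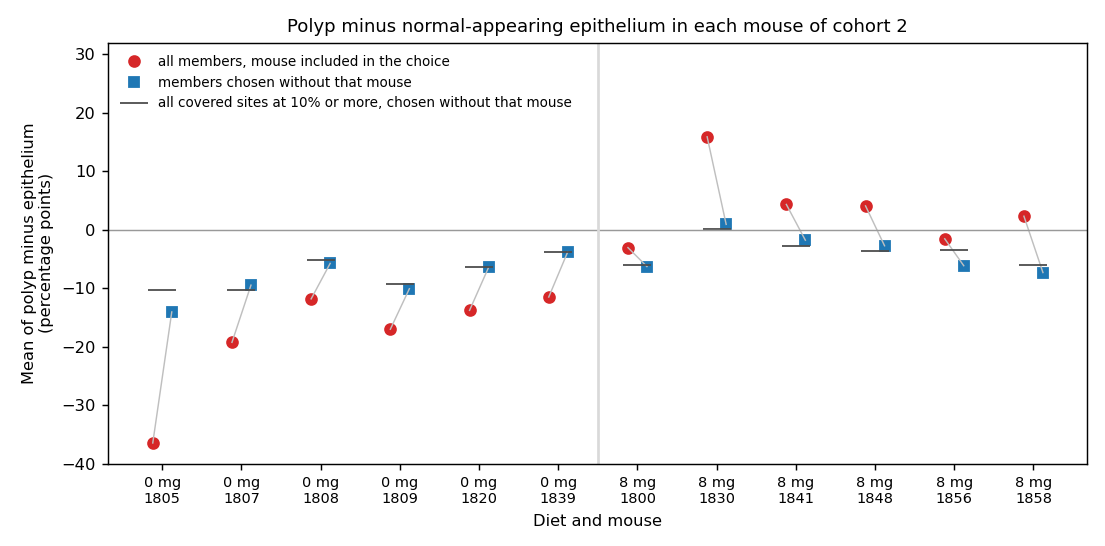
Mean of polyp minus epithelium (y axis, percentage points) in each cohort 2 mouse (x axis, diet and mouse number). Circles use the 408 sites, squares use sites chosen without that mouse, and dashes use all covered sites with at least 10% methylation. The 6 folate-free mice stay below 0 in each reading, while 4 of the 6 mice on 8 mg are above 0 as circles and 1 is as a square.

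Cohort 1 was then used to ask whether the epithelium on 2 and 8 mg FA is already low at these sites in libraries that the rule did not see. It was lower than the 0 mg epithelium at most of them, by a few points, and lower at most other covered methylated sites too, by less. Over the 271 sites covered in all 18 libraries, the 0ND library means were 54.2% (mouse 1807), 55.0% (1809), 55.6% (LC1810), 56.9% (LC1817) and 51.5% (1820), which is 54.7% ± 2.02 (SD, n = 5). The 2ND libraries ranged from 46.1 to 53.6% with a median of 51.1% (50.4% ± 2.48, n = 7). The 8ND libraries ranged from 46.5 to 55.2% with a median of 47.7% (49.2% ± 3.53, n = 6). The ranges of both FA diets overlap that of 0ND, the highest 8ND library being mouse 1848. All covered sites with at least 10% gave 61.9% ± 1.46 in 0ND, 58.8% ± 1.92 in 2ND and 58.4% ± 2.70 in 8ND.

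Site by site, 377 of the 408 could be compared with 0ND on either diet, with at least 20 reads in at least 4 libraries of all 3 groups. The 8ND minus 0ND difference had a median of -4.53 points and was below 0 at 291 of 377 sites (77.2%). A site was called lower or higher when a two-sided equal-variance test gave p under 0.05 and the means differed by more than 5 points. By this rule 82 sites (21.8%) were lower in 8ND, beside 4.2% of all 17874 sites tested, and 5 (1.33%) were higher, beside 0.643%. The 2ND minus 0ND difference had a median of -3.98 points and was below 0 at 289 of 377 sites (76.7%). Of these sites 65 (17.2%) were called lower in 2ND, beside 4.04% of all 18801 tested, and 3 (0.796%) higher, beside 0.452%. The 5 0ND libraries serve as the reference on both diets, which ties the comparisons to each other. After Benjamini-Hochberg adjustment over all sites tested, 0 of the 377 passed 0.05 in either comparison with the equal-variance test, limma, the exact permutation test or the quasi-binomial model. At an unadjusted p under 0.05 by the equal-variance test there were 89 of 377 in 8ND and 72 of 377 in 2ND. Over all sites tested there were 1051 of 17874 and 1146 of 18801. Among covered sites with at least 10% in 0ND there were 682 of 3593 and 707 of 3610. The smallest adjusted p over the 377 sites was 0.134 for 8ND and 0.382 for 2ND in limma. In the quasi-binomial model it was 0.0571 and 0.174, and 5 of all sites passed in 8ND and 0 in 2ND.

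The background of all tested sites is mostly unmethylated and cannot fall, so the covered sites with at least 10% in 0ND are the closer reference. Among them the median 8ND minus 0ND was -2.75 points, with 72.3% below 0, 15.4% called lower and 2.09% called higher. Their median 2ND minus 0ND was -2.82, with 75.2% below 0, 14.6% called lower and 1.39% called higher. Of the selected sites only 5 (1.33%) in 8ND and 3 (0.796%) in 2ND were called higher, too few to read a difference from these shares. The shares below 0 at the selected sites were thus near this background, and the size of the differences lay further from it. The 614 sites lower in polyps on both diets gave -5.57 points and 27.2% for 8ND and -7.16 points and 35.8% for 2ND. The 129 sites lower only in 8 mg polyps gave -2.55 points and 12.6% for 8ND and -2.56 points and 12.3% for 2ND. The selected sites thus lay between covered methylated sites in general and the sites that were lower in polyps on both diets, and a larger difference in cohort 1 epithelium was found at the latter.

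**Figure D3:**
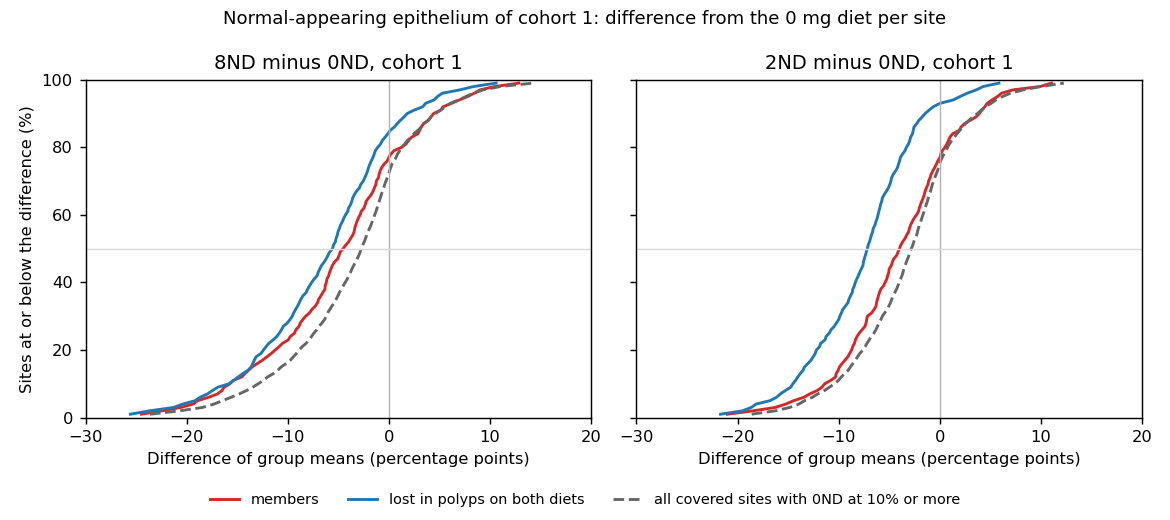
Share of sites (y axis, percent) at or below a given difference of group means (x axis, percentage points) in cohort 1, for 8ND minus 0ND (left) and 2ND minus 0ND (right). The solid red line is the 377 selected sites, the solid blue line the sites lower in polyps on both diets (591 left, 593 right), and the dashed line all covered sites with at least 10% in 0ND (3593 left, 3610 right). The median of the selected sites is at -4.53 on the left and -3.98 on the right.

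The diet difference of cohort 1 varied with the starting level of a site. In the 30 to 50% class of the cohort 2 0ND level, the 8ND minus 0ND median of cohort 1 was -4.32 points at the selected sites and -4.19 at all covered sites of that class. In the 50 to 70% class the medians were -6.03 and -6.46, and in the 70 to 90% class -6.18 and -5.07. At 10 to 30% they were -1.33 and 1.11, and at 90 to 100% they were -2.36 and -1.50. The medians of the selected sites were close to those of all covered sites between 30 and 70% and lower in the other classes. The classes held 77, 81, 77, 116 and 57 selected sites from lowest to highest, which is 10.6, 15.6, 12.4, 11.9 and 5.96% of the covered sites in them.

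The selected sites were also split by the size of the polyp loss, a value that the rule used. The 118 sites at least 20 points lower in 0P had a median 8ND minus 0ND of -7.29 points and a median 2ND minus 0ND of -5.97 in cohort 1. The 187 sites lower by 10 to 15 points had -3.10 and -2.55. Sites with the larger loss thus had the larger median difference on both diets, which is a description only. A 0ND level is subtracted in both values, partly from the same mice. The diet difference also varied with the 0ND level of a site, and the part of either in this pattern was not tested. Since 0ND libraries of 3 mice entered both cohorts, the comparison over all selected sites was repeated with the 2 0ND mice of cohort 1 that had no cohort 2 library (LC1810 and LC1817). Against them the 2ND mice, none of which were in cohort 2, had a median difference of -5.64 points over 375 sites, with 289 below 0. Against the 3 shared 0ND mice it was -3.05. For 8ND the medians were -5.65 and -3.60, and 1 8ND mouse that was in no cohort 2 group (LC1844) gave -7.78 over 280 sites. Covered sites with at least 10% gave -3.76 (2ND) and -3.75 (8ND) against the 2 unshared mice, -2.13 and -1.93 against the 3 shared mice, and -4.42 for LC1844. The unshared 0ND mice thus gave the larger differences at both sets of sites.

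The 2 FA doses were closer to each other than to 0 mg at these sites. The 8ND minus 2ND difference of cohort 1 had a median of -0.709 points over 398 sites, and 227 were below 0. Of them 23 (5.78%) were called lower in 8ND, beside 1.09% of all 18801 sites tested, and 9 (2.26%) were called higher, beside 0.846%. Among the 377 sites, 41 (10.9%) were called lower in both 8ND and 2ND, beside 1.98% of the 17853 sites tested in both comparisons and 7.63% of covered sites with at least 10%. A further 41 (10.9%) were called lower in 8ND alone, beside 2.22% and 7.74%, and 24 (6.37%) in 2ND alone, beside 2.14% and 6.96%. At the sites lower in polyps on both diets 18.4% were called lower in both. On at least 1 diet 7 of the 377 were called higher, beside 0.941% of all sites tested in both. Covered sites with at least 10% had a median 8ND minus 2ND of -0.0424 points, with 3.26% called lower and 2.53% higher. A call on 1 diet only does not show that the diets differed there. All 8ND values were below all 0ND values at 24 sites (6.37%), beside 1.14% of all tested sites, and all 2ND values at 8 (2.12%), beside 0.67%.

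The 8 mg epithelium was not equally low in the cohorts. Over the 377 sites the median group mean was 53.0% in 8ND of cohort 1 and 44.1% in 8ND of cohort 2, while 0ND gave 60.7% and 62.2%. The per-site difference between cohorts had a median of 5.99 points for 8ND and of -0.847 for 0ND. At covered sites with at least 10% the 8ND cohorts differed by a median of 0.308 points. The rule used the cohort 2 libraries, so low 8ND values of cohort 2 are favored among the sites it chose.

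The 8 mice with epithelium in both cohorts were compared with themselves. In 0ND the mean adjusted level at the selected sites was 57.9% in cohort 1 and 55.6% in cohort 2 for mouse 1807, 58.5 and 60.5% for mouse 1809, and 54.0 and 56.2% for mouse 1820. In 8ND, mouse 1830 had 54.4 and 36.1%, and mouse 1848 had 58.7 and 45.0%. Mouse 1841 had 50.2 and 45.9%, and the means of mice 1856 and 1858 differed by less than 1 point between cohorts. Mice 1830 and 1848 thus differed most between cohorts. On raw percentages, before the adjustment with spiked standards, mouse 1830 had 34.8 and 35.5% and mouse 1848 43.2 and 43.7%. Mouse 1841 had 38.5 and 35.4%, and the other 5 mice were higher in cohort 2, such as mouse 1807 at 38.2 and 53.1% and mouse 1856 at 32.1 and 47.4%. At covered sites with at least 10% the raw means of mouse 1830 were 44.8 and 58.1% and its adjusted means 62.5 and 58.8%. Mouse 1830 was thus low in cohort 2 at the selected sites on both scales, relative to its own covered sites. Its cohort 2 library took part in the choice, which favors sites where it is low. At 247 sites chosen without mouse 1830, its cohort 2 epithelium had an adjusted mean of 51.1%. The odds factor of the adjustment was 3.14 and 2.35 in the cohort 1 libraries of mice 1830 and 1848 and 1.06 and 1.08 in their cohort 2 libraries. Both cohort 2 libraries also had over 8% of their reads on the 100 most-read sites. So did the cohort 2 libraries of 8ND mouse 1858 (8.76%, odds factor 1.08) and 0ND mouse 1820 (9.26%, odds factor 1.15). The means of these mice differed by only 0.278 and -2.13 points, cohort 1 minus cohort 2. The part of the odds factor or of this read share in the differences was not tested.

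**Figure D4:**
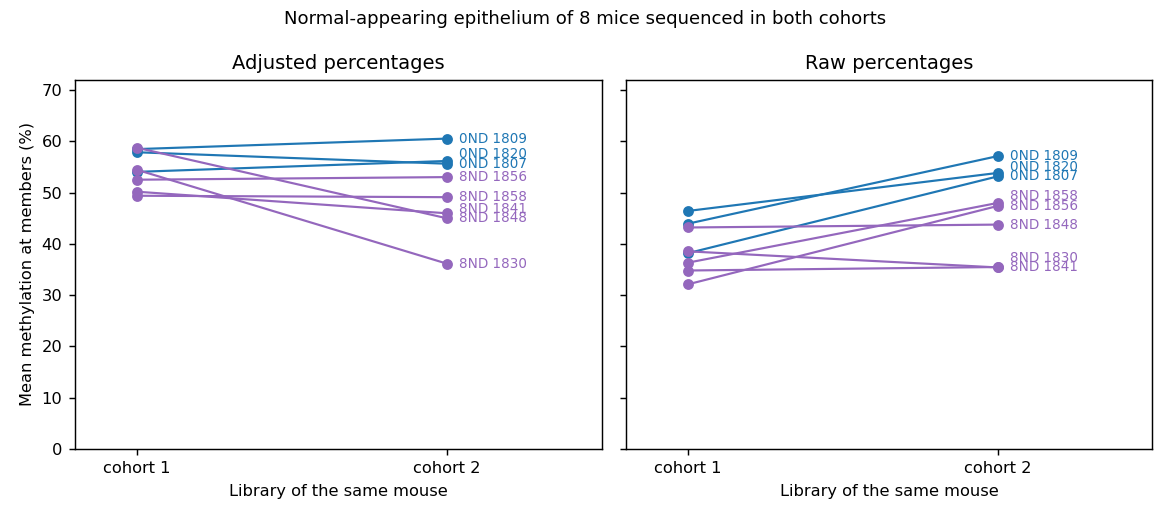
Mean methylation at the selected sites (y axis, percent) in the epithelium libraries of 8 mice that were sequenced in both cohorts (x axis), as adjusted (left) and raw (right) percentages. Each line is a mouse, blue on 0 mg and purple on 8 mg. On the adjusted scale mouse 1830 goes from 54.4 to 36.1% and mouse 1848 from 58.7 to 45.0%, and the 0 mg mice stay within 3 points.

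The choice was repeated without single cohort 2 libraries, and the cohort 1 medians kept their sign. Without the 8ND library of mouse 1830 the rule found 368 sites, of which 313 were among the 408, with a cohort 1 median of -3.81 points for 8ND and -3.21 for 2ND. Without the 0P library of mouse 1805 it found 382, of which 316 were shared, with -4.92 and -4.10. Without the 8ND library of mouse 1848 it found 343, of which 306 were shared, with -4.62 and -3.72. The 8ND libraries of mice 1841 and 1858 in cohort 1, with over 30% of reads on standards, were left out of the comparison itself. Without them the 8ND median was -3.17 points and 15.8% of 279 sites were called lower. With all libraries, covered sites with at least 10% had -2.75 points and 15.4%, which is near these values. Their values without the 2 libraries were not read, so whether the selected sites then stood apart cannot be told. On raw percentages the medians of the same sites were -5.47 for 8ND and -2.23 for 2ND, but for 2ND only 1.59% (6 sites) were called lower, beside 0.622% of all sites tested, so the number of 2ND calls depends on the adjustment.

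The sites share few features of position. They lay on all 19 autosomes, with 6.44 (chromosome 17) to 18.3 (chromosome 19) of them per 100 covered sites with at least 10%. Within 1 kb of each other they formed 356 runs: 304 were single sites and 52 held 2, so no longer stretch was found and no run stood out by size. A covered site that was not selected lay within 1 kb of many of them. The 268 such neighbors with at least 10% in 0ND had a median 0P minus 0ND of -7.83 points and a median 8P minus 8ND of -4.12, and 50 of the neighbors were lower in polyps on both diets. Methylated sites were in sparse surroundings: 4 or more listed CCCGGG sites lay within 1 kb at 1.47% of the selected sites, 1.14% of those lower on both diets and 3.37% of covered sites with at least 10%, against 23.1% of all covered sites. The 0ND level was 50% or more at 61.3% of the selected sites, 67.2% of covered sites with at least 10% and 83.1% of those lower on both diets.

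The 8 sites with the largest excess of loss in 0 mg polyps over 8 mg polyps, among those covered in all 7 groups, are described first. They were ranked by cohort 2 values, which are given as means only. Exact permutation p-values below compare group means of cohort 1, are two-sided and unadjusted, and none of these sites passed adjustment over all sites. The ranking favors sites with a high 0ND and a low 8ND mean in cohort 2. Most cohort 1 mice on the 0 and 8 mg diets also gave cohort 2 libraries that entered this ranking. The p-values are therefore a description of the ranked sites and no independent check of them.

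At chr1:181857264 the cohort 2 means were 86.9% in 0ND, 37.7% in 0P, 49.4% in 8ND and 52.9% in 8P. In cohort 1 the 0ND values were 83.9, 87.0, 88.5, 76.0 and 72.6%, the 2ND values ran from 59.9 to 77.6% with a mean of 70.3% and the 8ND values from 46.3 to 80.4% with a mean of 66.2%. The 2ND minus 0ND difference was -11.3 ± 4.06 points (SE, exact permutation p = 0.0253) and 8ND minus 0ND was -15.4 ± 7.21 (p = 0.0671). Only the 2ND call passed, and both FA groups overlapped 0ND.

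At chr16:92344785 the polyp difference was -34.2 points on 0 mg and 14.5 points on 8 mg. Its cohort 1 means were 66.6% ± 19.1 in 0ND (SD, n = 5), 58.2% ± 9.41 in 2ND (n = 7) and 42.0% ± 7.30 in 8ND (n = 6). The 0ND spread came from mouse 1820, at 35.2% with 47 reads, beside 61.4 to 79.9% in the others. The site was lower in 8ND than in 0ND (exact permutation p = 0.026) and than in 2ND (p = 0.00932), and 2ND minus 0ND was -8.37 ± 8.26 points (SE, p = 0.335).

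At chr11:5180952 the polyp difference was -43.5 points on 0 mg and 3.77 on 8 mg, and here cohort 1 showed no low 8 mg epithelium. Its means were 62.8% ± 18.2 in 0ND, 49.8% ± 7.82 in 2ND and 61.7% ± 13.9 in 8ND. The 8ND mean of cohort 2, 29.1%, held 0% in mice 1830 and 1858 with 42 and 39 reads, beside 33.3 to 58.4% in the other 3 mice with enough reads. In cohort 1 the same mice had 66.6 and 40.4% at this site. The 8ND minus 0ND difference of cohort 1 was -1.04 ± 9.67 points (SE, exact permutation p = 0.92).

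At chr15:12366097 the cohort 1 means were 52.4% in 0ND, 48.5% in 2ND and 37.0% in 8ND, and 8ND was not called lower than 0ND (exact permutation p = 0.0606). At chr2:33292927 they were 80.5, 75.8 and 73.3%, with no call, and the 8ND value of mouse 1858 in cohort 2 was 0% with 21 reads. At chr12:114353174 the FA groups stood above 0ND in cohort 1, at 58.9% in 2ND and 53.0% in 8ND beside 43.9%, again with no call. The remaining 2 of the 8, on chromosomes 6 and 7, are also among the sites lowest in cohort 1.

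The 41 sites called lower on both FA diets in cohort 1 include 6 with the lowest mean difference. These 6 were picked by the cohort 1 values given below, which are therefore a description. Exact p-values are given only for the sites on chromosomes 6 and 7, which the cohort 2 ranking also picked. Because mice are shared between the cohorts, these p-values are no independent check either. At chr6:50328253 the cohort 1 0ND values were 75.6, 70.8, 73.0, 48.1 and 56.2%, the 2ND values ran from 25.0 to 57.3% with a median of 34.7%, and the 8ND values from 18.7 to 43.3%. No 8ND value reached the 0ND range, and 2 of the 7 2ND values did. The 8ND minus 0ND difference was -33.6 ± 6.59 points (SE) and its exact permutation p of 0.00216 is the smallest that 5 against 6 libraries allow. The 2ND minus 0ND difference was -25.5 ± 7.02 (exact permutation p = 0.0101). In cohort 2 the means were 59.1% in 0ND, 13.8% in 0P, 17.8% in 8ND and 16.4% in 8P, so 8 mg epithelium and both kinds of polyp stood at a similar low level.

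The site at chr7:105335197 had the same order. Its cohort 1 0ND values were 53.9, 62.2, 67.6, 60.3 and 43.9%, the 2ND values ran from 20.1 to 48.8% and the 8ND values from 13.0 to 41.6%. All 8ND values were below all 0ND values (exact permutation p = 0.00216), and 2 2ND values overlapped the lowest 0ND value (p = 0.00505). The differences were -26.0 ± 6.38 and -23.9 ± 5.68 points (SE). In cohort 2 it had 66.8% in 0ND, 19.3% in 0P, 24.9% in 8ND and 25.9% in 8P, from 41 reads or more in each library.

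At chr17:80548379 the cohort 1 means were 69.8% in 0ND, 44.4% in 2ND and 35.1% in 8ND, the largest 8ND difference among the selected sites at -34.7 ± 6.38 points (SE). The 0ND values were 71.4, 81.8, 85.5, 58.0 and 52.4%, all above the highest 8ND value of 42.8%. In 2ND the values ran from 23.5 to 59.4% and overlapped 0ND. The cohort 2 means were 63.3, 37.2, 35.9 and 35.6% in 0ND, 0P, 8ND and 8P, with 0P values from 0 to 59.9%.

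At chr8:123694313 the 8ND values of cohort 1 were the least variable of the 6 sites, from 27.3 to 34.6% (31.7% ± 3.14, SD, n = 6), below every 0ND value (42.5 to 70.5%). The 2ND mean was 41.9%. At chr13:98652693 the means were 65.1% in 0ND, 42.7% in 2ND and 44.5% in 8ND, and at chr9:45483933 they were 63.4, 48.3 and 39.0%. The 0P values of these last sites were wide in cohort 2, from 0 to 80.3% and from 8.1 to 87.1%, and overlapped 0ND at both.

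**Figure D5:**
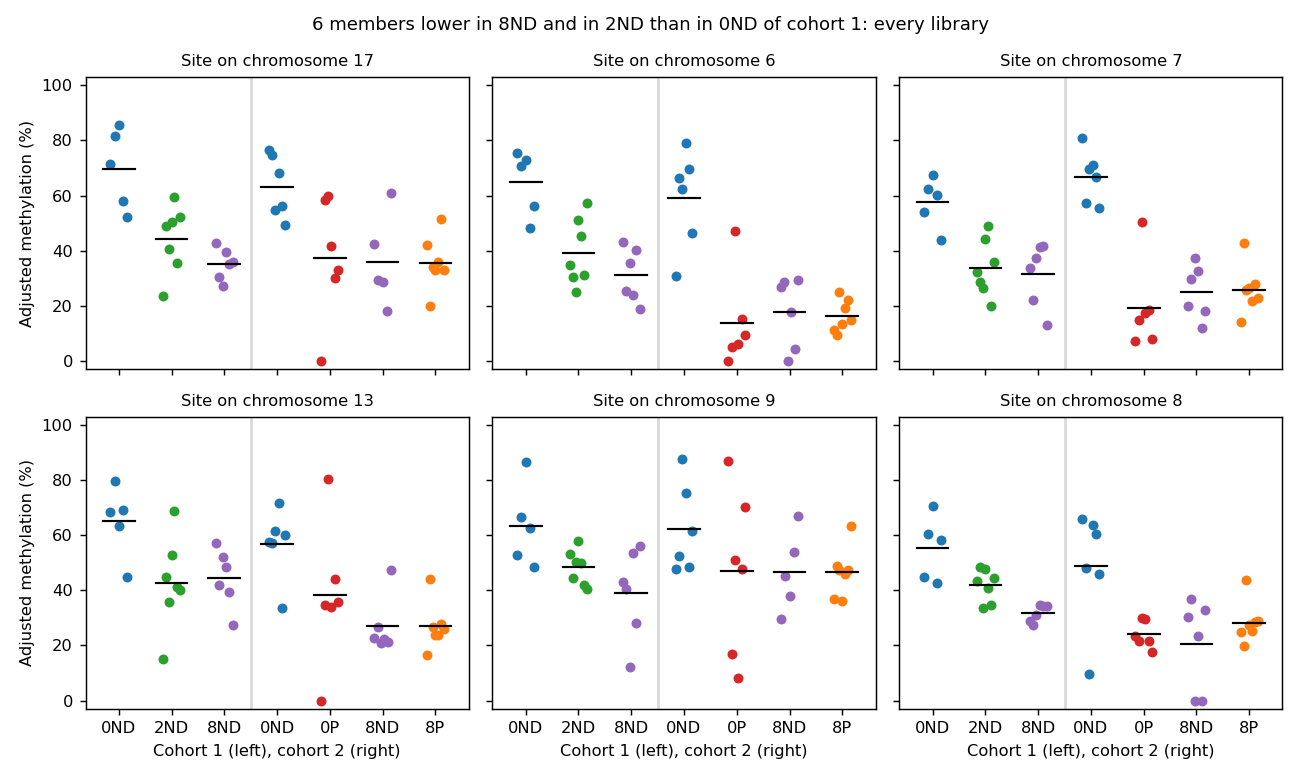
Adjusted methylation (y axis, percent) in every library with at least 20 reads at the 6 sites called lower on both FA diets in cohort 1 with the lowest mean difference (groups on the x axis, cohort 1 left and cohort 2 right of the line). Points are libraries and bars are group means. At the sites on chromosomes 6, 7, 8 and 17 every 8ND point of cohort 1 is below every 0ND point.

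Of the 7 sites called higher on an FA diet, the 3 with the largest rises were likewise picked by these values. At chr1:80594056 the cohort 1 0ND values were 17.2, 17.9, 16.2, 24.4 and 5.86%, and the 8ND values ran from 18.9 to 62.2%, a difference of 18.8 ± 7.04 points (SE). At chr11:43431612 2ND had a mean of 64.8% beside 48.6% in 0ND and 45.5% in 8ND. At chr4:140988704 the means were 11.2% in 0ND, 17.1% in 2ND and 25.7% in 8ND. These sites started lower than most of the set in cohort 1, with 0ND means of 16.3, 48.6 and 11.2%.

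The thresholds separate sites with nearly equal values. The site just inside the polyp bound, chr4:119836790, had a 0P minus 0ND of -10.002 points, and the nearest site outside it, chr12:12927425, had -9.99. The site just inside the 8 mg bound, chr12:109624816, had an 8P minus 8ND of -2.98 points and the nearest outside, chr7:149816664, had -3.01.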

How the data were processed

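A total of 43 DREAM libraries of LMD mouse colon were analyzed, grouped by diet, tissue, cohort and mouse number in the sample labels. The deposited files list read counts for CCCGGG sites on mm9, the raw percent of methylated reads and a percent adjusted by the authors with spiked standards, which follows from the raw percent by 1 odds factor per library. Bowtie2 and SAMtools are named in the submitters' processing notes, without versions. A human genome is given for mapping in the published methods, but each site name refers to mm9.

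Adjusted percentages from at least 20 reads were analyzed in Python 3.11.15 (numpy 2.4.6, scipy 1.17.1, pandas 2.3.3), with limma 3.58.1 in R 4.3.3 as an alternative. Group means needed at least 4 libraries. Calls required group means over 5 points apart and an unadjusted p under 0.05 (two-sided test, equal variances). These tests were checked on simulated data. Exact permutation tests over all assignments of the libraries, on the absolute difference of means, give the p-values of single sites. Reads are not unique molecules, so depth limits cover counting error only. Nothing in the labels but the mouse number shows that cohort 1 libraries are separate animals.

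The sites and comparison sets were chosen with earlier results of these data known. Named sites were the 8 with the largest excess of loss in 0 mg over 8 mg polyps (1 per run), the 6 lowest in cohort 1 among those called lower on both diets, the 3 with the largest rise among those called higher, and those nearest each threshold. A run with most members was to be named, but 52 tied.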

Additional observations from a re-analysis of the deposited data

Results flagged for a closer look

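Among 101 sets of 4 to 10 values at the named sites, 7 had a highest or lowest library that stood apart from the rest by Dixon's gap criterion, which chance meets in about 1 of 20 sets. Mouse 1808 gave 3 of them. Its polyp had 50.25% at chr7:105335197, where the other 0P libraries had 7.11 to 18.44%, and 47.15% at chr6:50328253, where the others had 0 to 15.07%. Its epithelium of cohort 2 had 9.65% at chr8:123694313, beside 46.05 to 66.05% in the other 0ND libraries. At the same site the 8P library of mouse 1841 had 43.71%, with the others at 19.8 to 28.77%.

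At chr13:98652693 the cohort 2 8ND library of mouse 1858 had 47.56%, with the others at 20.94 to 26.63%, and the 8P library of mouse 1830 had 44.05%, with the others at 16.47 to 27.61%. At chr1:80594056 the cohort 2 0ND library of mouse 1805 had 72.97%, with the others at 21.37 to 33.36%. These values are single libraries, and their cause was not tested.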

How the results depend on the processing

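The number of sites was 408, and 355 on raw percentages. It was 577 with a minimum of 10 reads and 202 with 50, 176 with every library required, and 221 with a drop of 15 points, which keeps fewer sites by construction. It ran from 347 to 452 without each mouse in turn. Keeping only libraries whose 100 most-read sites took under 8% of reads gave 390, of which 182 were among the 408. That run allowed fewer than 4 libraries per group, and its cohort 1 medians were not read. The cohort 1 medians kept their sign in every alternative in which they were read. The 8ND median ran from -5.86 to -3.71 points without each library and the 2ND median from -4.41 to -3.36. The share called lower ran from 17.9 to 24.7% and from 12.4 to 19.4%, and the share over all sites was not read in these runs. With only mice of no cohort 2 library the 8ND median was -7.78, from 1 8ND library. With Benjamini-Hochberg adjustment the share called was 0% in both comparisons. The share called lower in 2ND was 1.59% on raw percentages, beside 0.622% of all sites tested, and the cause was not tested. limma, the exact permutation test and the quasi-binomial model gave 22.5, 20.7 and 22% for 8ND, beside 4.44, 4.25 and 4.49% of all sites tested. For 2ND they gave 18.6, 17.2 and 20.2%, beside 4.24, 4.02 and 5.08%. The quasi-binomial model also called 22 selected sites higher in 8ND and 8 in 2ND, against 5 and 3 by the equal-variance test. Its share called higher over all sites was not read, so nothing is read from these counts about the selected sites. The choice of sites without 1 library of mouse 1805, 1830 or 1848 was added after seeing the data. No paired analysis was possible because the cohort 1 groups tested share no mouse, and the cohort 2 changes, read within each mouse, were not tested. Depth limits single values most in 8ND, where mouse LC1844 had a median of 33 reads.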
